A study of Mus musculus with 9 samples.

Results

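The libraries of main olfactory epithelium (MOE) that carried replicate number 1 were compared with those that carried numbers 2 and 3. Number 1 comprised 3 of 9 libraries, one for each genotype, and numbers 2 and 3 comprised the other 6. This split was chosen on the measured expression values, because the number 1 libraries lay apart in all 3 genotypes. Differences between the sets are therefore given as a description, with no test, and serve as evidence for nothing further. The labels do not say what the number marks, such as a litter, a dissection, an extraction or a sequencing run.

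All mice were labelled C57BL/6 and taken at postnatal day 14, from a single line in which TAAR enhancer 2, a regulatory element of the Taar gene cluster, had been removed with CRISPR-Cas9 in C57BL/6J zygotes. The study describes its several mouse lines together as of mixed C57BL/6J and 129 background. Libraries came from wild-type mice (WT), from carriers of 1 deleted copy (TAAR enhancer 2 +/-, here het) and from mice that lacked both copies (TAAR enhancer 2 -/-, here homo). Each genotype contributed 1 library to number 1 and 2 to the other set. Littermates of both sexes were used in the study, and RNA came from the whole MOE rather than from sorted cells.

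The MOE is a renewing epithelium in which horizontal and globose basal cells give rise to immature and then mature olfactory sensory neurons (OSNs). Sustentacular cells, Bowman's glands, ensheathing glia and a lamina propria with connective tissue, vessels and immune cells surround the neurons. In a dissected nose the sheet lies on cartilage and bone and borders respiratory and squamous epithelium, so that a dissection can carry these tissues along. In whole-tissue RNA, a smaller number of cells of a type cannot be told apart from less RNA per cell.

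Total counts were 20527992 in WT_1, 21276029 in het_1 and 22292647 in homo_1, against 24905135 to 32262005 in the other set, so the sets did not overlap in depth. Levels are given as CPM, counts scaled to a common library total after adjustment by the trimmed mean of M values (TMM), and a count of 3 corresponded to 0.0928 to 0.147 CPM. WT_3 stood apart within the larger set, and was the outlying library for 15 of 45 gene lists by the criterion given at the end, so values without it are given where they differ. The tissue label was borne out in every library. Omp, which encodes the olfactory marker protein of mature OSNs, stood at 2129 CPM in WT_1, 2109 in het_1 and 1999 in homo_1. In the other libraries Omp ranged from 2011 through a median of 2130 to 2388 CPM, and the sets overlapped. Xist, the noncoding RNA of the inactive X chromosome, was at 2344 to 3078 CPM in WT_1, WT_2, het_2, homo_2 and homo_3. It was at 1.18 to 1.94 CPM in the remaining 4, so each set held libraries of both kinds, but not in balance. In number 1 only WT_1 was high. Within homo, homo_1 was low while homo_2 and homo_3 were high, so there the set cannot be told apart from the Xist level. All number 2 libraries were high, but of number 3 only homo_3. The Xist level was not a term in any fit.

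Of 19775 genes, 1072 (5.42%) were called higher and 697 (3.52%) lower in number 1. A gene was called where the fold exceeded 1.5 and the adjusted p-value of the genotype-adjusted fit was under 0.05, a limit that serves here only to sort genes chosen on the same values. The number 1 libraries all lay above the other 6 for 3511 genes (17.8%) and all below for 3207 (16.2%). The direction was the same in all 3 genotypes for 1071 of the genes called higher and for 697 of those called lower. With genotype means removed, the principal component of greatest variance held 52.2% of it. WT_1, het_1 and homo_1 scored 45.2, 31.4 and 29.1 on it, and the others ran from −43.4 for WT_3 to −1.78 for WT_2. Thinning every library to the smallest total left 1071 genes called higher and 689 lower. Across 13202 genes the number 1 difference of WT correlated with that of het at a Pearson r of 0.738 (Spearman 0.785). The values were 0.394 (0.702) for WT with homo and 0.770 (0.869) for het with homo. These correlations run across genes, which are not independent replicates, and the 3 differences share no library.

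The genes that differed were unequal in base composition. Among 16042 genes with a mean of at least 1 CPM, the median GC content of the transcript was 56.6% for genes called higher and 43.9% for genes called lower. It was 49.3% for the rest. The first 120 coding bases of 4 called genes are printed to show what this contrast looks like in the RNA, with G and C in capitals, in mm10 from the GENCODE annotation.
Cdk5r2 (higher, chr1:74855098-74855217, plus strand): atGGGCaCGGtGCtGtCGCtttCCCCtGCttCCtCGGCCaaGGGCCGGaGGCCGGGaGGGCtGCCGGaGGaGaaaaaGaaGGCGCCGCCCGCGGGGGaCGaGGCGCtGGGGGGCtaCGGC
H2afx (higher, chr9:44334762-44334881, plus strand): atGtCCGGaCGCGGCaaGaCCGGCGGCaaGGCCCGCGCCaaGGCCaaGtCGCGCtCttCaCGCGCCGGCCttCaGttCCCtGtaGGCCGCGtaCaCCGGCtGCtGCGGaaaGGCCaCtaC
Klhl28 (lower, chr12:64957618-64957737, minus strand): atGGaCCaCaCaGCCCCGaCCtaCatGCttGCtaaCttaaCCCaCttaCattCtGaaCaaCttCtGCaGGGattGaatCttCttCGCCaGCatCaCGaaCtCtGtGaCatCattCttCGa
Olfr1247 (lower, chr2:89609981-89610100, minus strand): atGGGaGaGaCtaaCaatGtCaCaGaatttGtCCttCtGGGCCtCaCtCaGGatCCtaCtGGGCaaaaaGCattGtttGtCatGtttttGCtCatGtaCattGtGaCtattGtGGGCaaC

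In these stretches, 73.3% of the bases of Cdk5r2 and 69.2% of those of H2afx were G or C, against 46.7% in Klhl28 and 43.3% in Olfr1247. Cdk5r2 encodes a neuronal activator of the kinase Cdk5 and stood at 78.6, 79.7 and 79.5 CPM in WT_1, het_1 and homo_1, against 24.0, 28.8 and 30.1 CPM as the lowest, median and highest of the others. H2afx, which encodes the histone variant H2A.X, stood at 55.9, 50.6 and 58.6 CPM against 20.2, 21.8 and 27.1 CPM. For both genes, every number 1 library lay above every other library. Klhl28, a member of the kelch-like family, stood at 30.5, 35.6 and 29.3 CPM against 43.9, 59.6 and 65.7 CPM. The odorant receptor gene Olfr1247 stood at 3.34, 3.60 and 2.90 CPM against 4.86, 6.73 and 8.32 CPM. For Klhl28 and Olfr1247, every number 1 library lay below the rest.

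The relation held along the whole range of composition. In the tenth of genes with the lowest GC content, from 30.9% to 40.6%, the median log2 difference (number 1 minus the others) was −0.27, with 0.312% of genes called higher and 192 of 1605 genes called lower. In the tenth with the highest, from 58.0% to 72.8%, the median was 0.30, with 23.2% called higher and 0.81% lower. Spearman's rho between GC content and the difference, a description across genes, was 0.371 within WT, 0.444 within het and 0.441 within homo. It was −0.125 for number 2 minus number 3, and −0.0547 between transcript length and the number 1 difference. Set against the mean of all 9 libraries, GC content correlated with the level at a rho of 0.457 in WT_1, 0.375 in het_1 and 0.409 in homo_1. The other libraries gave −0.588 in het_3 to 0.149 in WT_3, so WT_3 shared the sign of number 1.

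**Figure D1:**
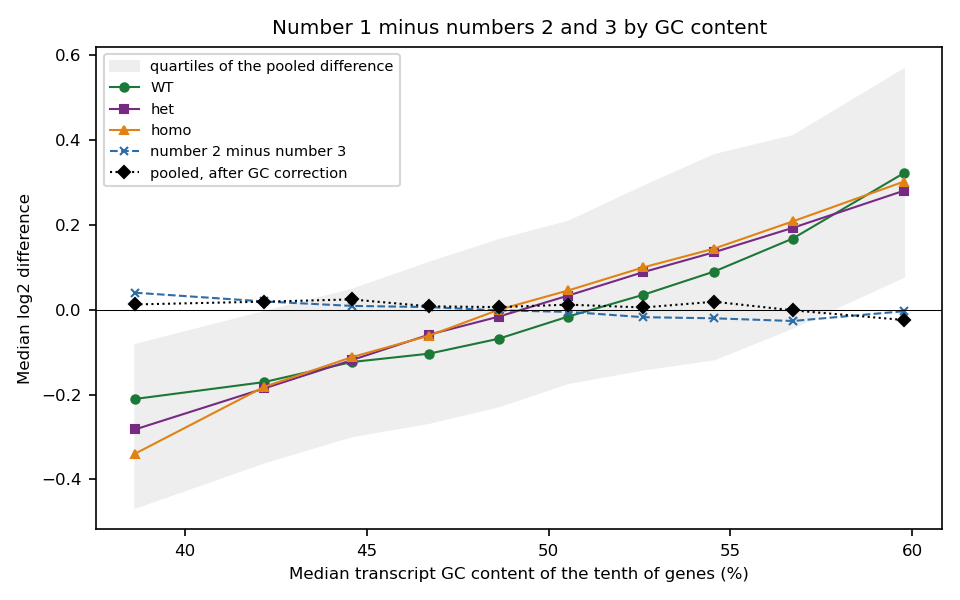
Median log2 difference, vertical axis, against the median GC content in percent of 10 equal groups of genes, horizontal axis, for number 1 minus the other libraries within each genotype, for number 2 minus number 3, and for the pooled number 1 difference after GC correction. The shaded band spans the quartiles of the pooled difference, whose medians ran from −0.27 to 0.30, whereas after correction they stayed near 0.

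A correction that removed a smooth shift by GC content from each library was therefore applied as an alternative, chosen after seeing the data. After it, 710 of 19563 genes (3.63%) were called higher and 517 (2.64%) lower. Of these, 566 and 392 had also been called before it. Cdk5r2 moved from 1.49 (SE 0.08) to 1.04 on the log2 scale and H2afx from 1.30 (SE 0.10) to 0.88. Klhl28 moved from −0.88 (SE 0.11) to −0.55, which was no longer called, and Olfr1247 from −0.98 (SE 0.19) to −0.65. Corrected values stand beside many results that follow. Whether the composition difference arose in the tissue, the RNA, the library or the sequencing was not tested.

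Among genes above 5 CPM, several of those with the greatest differences in favour of number 1 belonged to none of the gene lists. H1fx, a linker histone whose transcript is 71.3% G and C, stood at 25.4, 20.8 and 24.5 CPM in WT_1, het_1 and homo_1 against 5.07, 5.87 and 8.50 CPM. Its difference was 1.87 (SE 0.17), and 1.42 after GC correction. Adnp, a neuroprotective homeobox protein, gave 1.57 (SE 0.18) at a GC content of 48.1%, and 1.62 after correction. Prr29 and Bri3, of less known roles, gave 1.67 (SE 0.21) and 1.57 (SE 0.12). Among genes chosen after their values were seen, Tmsb10, an actin-binding thymosin, stood at 503, 482 and 485 CPM against 183, 215 and 241 CPM, and Jund, an AP-1 subunit, at 173, 152 and 160 CPM against 56.7, 66.5 and 86.1 CPM. The values of number 1 lay close together for both. Cox6a1, a subunit of cytochrome c oxidase, gave 1.38 (SE 0.10) and 1.12 after correction.

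Mature OSN genes differed little between the sets. Of 20 genes, 1 was called higher and 0 lower, and the median log2 difference was −0.07, beside −0.03 for all genes. In the list 2 genes lay above all other libraries and 4 below, beside 17.8% and 16.2% of all genes. Cnga2, a subunit of the olfactory cyclic nucleotide-gated channel, stood at 517, 555 and 540 CPM in number 1, against 529 to 614 CPM. Adcy3, the olfactory adenylyl cyclase, stood at 509, 556 and 516 CPM against 479 to 577 CPM. Both sets overlapped for these genes, and likewise for Omp. S100a5, also in the list, was not called at −0.50 (SE 0.18), but was called lower without WT_3, at −0.62. The 1 gene called in the full set was Gng13, a G protein gamma subunit of OSNs, at 206, 217 and 207 CPM against 64.5, 84.4 and 106 CPM. The log2 difference of Gng13 was 1.32 (SE 0.11), and 1.06 after GC correction.

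Several genes of the neuronal lineage before maturity were called higher in number 1. Of 12 progenitor genes, 5 were called higher and 0 lower, and 8 lay above all other libraries. The list's summed level was 781 ± 6.75 CPM (SD, n = 3) against 590 ± 65.8 CPM (SD, n = 6), with a median log2 difference of 0.59. Neurog1, a proneural factor of neuronal precursors, stood at 18.8 to 24.0 CPM in number 1 against 5.71, 6.32 and 7.75 CPM, a log2 difference of 1.66 (SE 0.13), or 1.61 without WT_3 and 1.42 after GC correction. Neurod1, expressed as precursors leave the cell cycle, stood at 68.04, 63.9 and 67.8 CPM against 30.4, 44.0 and 45.3 CPM. Both factors were higher in every number 1 library than in any other library. Insm1, a zinc-finger factor of neuronal progenitors, gave 0.99 (SE 0.11) but 0.58 and no call after GC correction. Lgr5, a stem cell marker, was not called at −0.08 (SE 0.17). Sox11 and Mybl1 were not called either, at 0.18 and −0.18.

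For immature OSNs, 4 of 15 genes were called higher and 0 lower, with a median of 0.40 that became 0.21 after GC correction. Without WT_1 or without WT_3, 2 were called. Gap43, the growth-associated protein of extending axons, stood at 293, 273 and 283 CPM against 149, 196 and 205 CPM. The difference of 0.59 (SE 0.09) just passed 1.5-fold and was 0.53 without WT_3, when it no longer passed. Dbn1, the actin-binding protein drebrin, gave 0.84 (SE 0.05). Marcksl1 gave 0.79 (SE 0.10) and Gng8 0.62 (SE 0.10), and neither was called after GC correction. Stmn2 and Dcx, cytoskeletal proteins of young neurons, were not called at 0.07 (SE 0.09) and −0.26 (SE 0.10). The summed level of immature OSN genes was 4401 to 4478 CPM in number 1 and 3235 to 4000 CPM in the others.

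Horizontal basal cell genes gave a similar picture, with 3 of 10 called higher and 0 lower. Krt5, the keratin that marks these cells, stood at 101, 62.6 and 63.7 CPM in WT_1, het_1 and homo_1 against 33.9, 36.1 and 43.0 CPM. Krt15, another basal keratin, stood at 82.0, 36.1 and 43.9 CPM against 6.56, 8.14 and 17.5 CPM, and WT_1 was the highest library for both. Their log2 differences were 1.01 (SE 0.10) and 2.38 (SE 0.26), and 0.82 and 2.22 after GC correction. Sox2, present in basal and sustentacular cells, gave 0.76 (SE 0.06). Trp63, the factor required for horizontal basal cells, gave 0.45 (SE 0.10) and was called only after GC correction, at 0.60. Krt14 gave 0.33 (SE 0.12), with overlap between the sets. Among 24 cell division genes, 6 were called higher and 0 lower. Ube2c, a ubiquitin-conjugating enzyme of mitosis, gave 1.01 (SE 0.12), Aurka 0.75 (SE 0.10) and Mcm2 0.73 (SE 0.09). Top2a, Pcna and Mki67 were not called, at −0.05, 0.00 and 0.30. The counts of called progenitor, basal cell, cell division, fibroblast, muscle, imprinted and cholesterol synthesis genes each stayed within 1.5 times when any single library was left out. After GC correction, 4 progenitor, 4 basal cell, 9 muscle and 7 imprinted genes were called higher. The counts fell to 3 for cell division, 2 for fibroblasts and 1 for cholesterol synthesis.

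**Figure D2:**
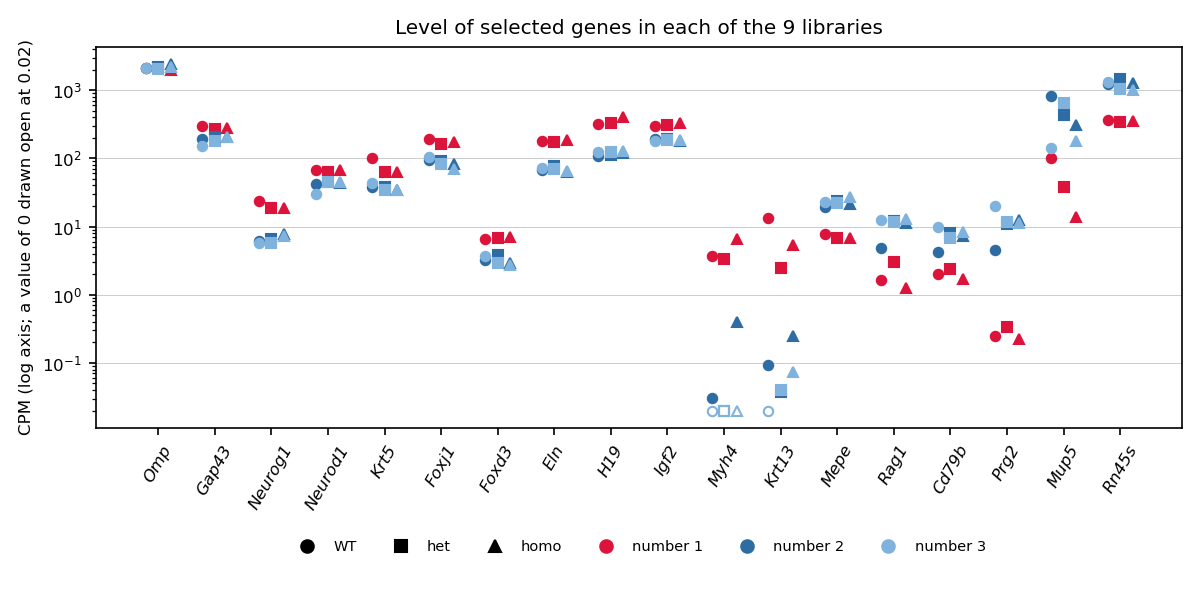
Level in CPM on a log axis, vertical, of 18 genes, horizontal, in each of the 9 libraries, with the marker shape for genotype and the colour for replicate number. Points at 0 are drawn open at the bottom. Omp overlapped between the sets, Gap43 to Krt13 were higher in the 3 number 1 libraries, and Mepe to Rn45s were lower in them.

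Sustentacular genes, of the supporting cells that flank OSN dendrites, showed 0 of 17 called in either direction and a median of −0.04. Cyp2g1, a microsomal cytochrome P450, stood at 1830, 1917 and 1888 CPM against 1117 to 2342 CPM, and the lowest value belonged to WT_3. The sets overlapped, but without WT_3 the others held 1944 to 2342 CPM, all above number 1. The summed level of the list was 11122 to 11745 CPM in number 1. It was 9793 to 13785 CPM in the others, or 11964 to 13785 CPM without WT_3. In that case 1 gene was called lower and the median was −0.10. Of the 17 differences in the full set, 8 were positive. Among 31 genes of xenobiotic metabolism, 4 were called higher and 0 lower. These were Aldh3a1, an aldehyde dehydrogenase, at 0.90, Gstp1, a glutathione transferase, at 0.75, Cyp2s1 at 0.66 and Por, the P450 reductase, at 0.64 (SE 0.07). After GC correction Gstp1 alone was called, at 0.59, and Por was at 0.39. Without homo_1 2 were called higher, and 3 were called lower without WT_3 and 1 without homo_3. Cyp2a5 and Ugt2a1, abundant olfactory detoxification enzymes, were both at −0.30 and not called. Without WT_3 they were at −0.34 and −0.38, again not called, and every number 1 library lay below the others.

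Genes of motile cilia, the organelles of respiratory ciliated cells, were higher in number 1. Of 27 genes, 10 were called higher and 0 lower, 15 lay above all other libraries and 1 below, and the median was 0.47 (0.49 after GC correction). Without homo_1, 4 were called higher. Foxj1, the master regulator of motile ciliogenesis, stood at 190, 165 and 173 CPM against 68.8, 86.8 and 106 CPM, a log2 difference of 1.01 (SE 0.08). Ccno and Mcidas, needed to multiply basal bodies, gave 1.15 (SE 0.13) and 0.98 (SE 0.22). Dnah5, a heavy chain of the outer dynein arm, stood at 158, 147 and 136 CPM against 56.6, 81.5 and 134 CPM, so that the sets nearly met. The sum over the list was 2033 to 2135 CPM in number 1 and 1602 to 2028 CPM in the others. Microvillous tuft cell genes went the other way in part, with 0 of 11 called higher and Plcb2, a phospholipase of their signalling, called lower at −0.69, a call lost when any one library other than WT_2 was left out. Trpm5, their transduction channel, was at −0.39 (SE 0.15) and not called. After GC correction 0 tuft cell genes were called higher and 3 lower. Before it, 2 lay above all other libraries and 3 below. Their summed level was 34.8 to 36.5 CPM in number 1 against 37.1 to 65.7 CPM, or 37.1 to 43.6 CPM without WT_3. Among 8 ionocyte genes 1 was called, Foxi1, the factor that specifies ionocytes, at 0.91 (SE 0.08). Of these genes, 2 lay above all other libraries and 2 below. Their summed level was 372 to 402 CPM in number 1 and 397 to 479 CPM in the others.

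Genes of glia were split. Of 16 genes for ensheathing glia and Schwann cells, 5 were called higher and 1 lower, and the higher ones included Npy at 0.98 and Ngfr at 0.80. In the list 7 genes lay above all other libraries and 1 below, beside 17.8% and 16.2% of all genes. The summed level went the other way, without overlap. It was 827 to 918 CPM in number 1 against 948 to 1329 CPM, or 948 to 1051 CPM without WT_3. Foxd3, a neural crest factor, stood at 6.48, 6.72 and 6.94 CPM against 2.75, 3.08 and 3.85 CPM, a log2 difference of 1.06 (SE 0.14). Sox10, which glia require, gave 0.60 (SE 0.08) but 0.21 after GC correction, no longer called. Apod, a lipocalin of glia and fibroblasts, was lower at −0.84 (SE 0.20). Leaving out WT_1 or het_1 left 0 called lower, and leaving out het_1, het_3 or homo_1 left 2 or 3 called higher.

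Collagens were among the connective tissue genes called higher before GC correction, whereas some other fibroblast genes were not called. Of 16 fibroblast genes, 6 were called higher and 0 lower, and the summed level was 14022 ± 496 CPM (SD, n = 3) against 9362 ± 730 CPM (SD, n = 6). Col1a1, a chain of the fibrillar collagen of bone, skin and stroma, stood at 5174, 4710 and 4907 CPM against 2492, 2771 and 3323 CPM. Its log2 difference was 0.81 (SE 0.12), but 0.54 and not called after GC correction. Col6a2 gave 1.08 (SE 0.08) and remained called at 0.91. Dcn and Lum, small proteoglycans of the same cells, were not called, at −0.03 (SE 0.12) and −0.06 (SE 0.07), or 0.17 and 0.15 after GC correction. The GC content was 42.4% for Dcn and 41.9% for Lum, against 58.9% for Col1a1 and 56.2% for Col6a2. After correction 2 of the 16 genes were called higher. Eln, outside the list and picked after its values were seen, encodes elastin and stood at 177, 171 and 186 CPM against 63.1, 68.3 and 78.2 CPM, a difference of 1.37 (SE 0.07). Endothelial genes had 2 of 15 called higher, Plvap at 0.97 and Ramp2 at 0.59, and 0 lower, and pericyte and smooth muscle genes 0 of 12 called in either direction.

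Cartilage and bone gave values of both signs. Col2a1, the main cartilage collagen, stood at 132, 227 and 354 CPM in WT_1, het_1 and homo_1 against 25.98, 78.6 and 121 CPM, and was the 1 of 12 cartilage genes called higher, with 0 lower. The median of the list was 0.36, and 0.04 after GC correction. Without WT_3 3 were called higher, without het_1 or het_2 2, and without WT_2 2 were called lower. Of 15 bone genes, 2 were called higher and 3 lower. Mepe, a phosphoprotein of osteocytes, stood at 7.70, 6.81 and 6.71 CPM against 19.4, 22.4 and 26.9 CPM. Mepe had the largest difference of the lower genes in this list, at −1.68 (SE 0.11), and −1.66 after GC correction. Phex, the osteocyte endopeptidase of phosphate control, gave −0.89 (SE 0.10), and Spp1, osteopontin, −0.69 (SE 0.07). Alpl, the alkaline phosphatase of mineralising osteoblasts, and Mmp9, a collagenase of osteoclasts and neutrophils, were higher at 0.79 (SE 0.08) and 0.81 (SE 0.12).

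Transcripts of tissues outside the MOE were present at low levels and were higher in number 1. Of 16 skeletal muscle genes, 9 were called higher and 0 lower, and the median was 1.197 before GC correction and 1.203 after it. Myh4, a fast myosin heavy chain on chromosome 11 from 67238029 to 67260446, stood at 3.73, 3.36 and 6.66 CPM in WT_1, het_1 and homo_1. In the other libraries Myh4 ranged from 0 to 0.395 CPM with a median of 0, and 4 of the 6 held no count. Acta1, skeletal muscle actin, stood at 1.81, 1.42 and 3.04 CPM against 0.295, 0.383 and 0.682 CPM. Ckm, muscle creatine kinase, stood at 1.18, 1.32 and 1.90 CPM against 0.143, 0.183 and 0.378 CPM. Ttn, the giant protein titin, gave 1.23 (SE 0.23). The summed muscle level was 33.8, 32.4 and 46.6 CPM in number 1 against 16.0 to 22.5 CPM.

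Keratins of stratified squamous epithelium behaved alike, with 4 of 12 genes called higher and 0 lower, and 2 without WT_1 or without het_1. Krt13, a suprabasal keratin of moist stratified epithelia on chromosome 11 from 100117327 to 100121566, stood at 13.4, 2.46 and 5.35 CPM. The others held 0 to 0.251 CPM. Krt4, its partner keratin, stood at 11.5, 4.12 and 7.75 CPM against 0.189, 0.277 and 0.649 CPM. WT_1 was highest for both. The summed level of the list overlapped between the sets, at 27.8 to 76.7 CPM in number 1 against 19.4 to 35.4 CPM, the highest of these in WT_3 and 21.9 CPM without it. Tooth germ genes were highest in WT_1, apart from Odam. Amelx, the enamel protein amelogenin, had 178, 7 and 2 counts in WT_1, het_1 and homo_1 and 0 in the other 6. Dspp, of dentine, had 28 counts in WT_1, 1 in het_1 and 0 elsewhere, and Enam 15 counts in WT_1 and 0 elsewhere. Ambn, ameloblastin, stood at 5.94, 1.80 and 0.907 CPM against 0.155 to 0.502 CPM, whereas Odam, a protein of maturing enamel organ, overlapped at 3.69 to 23.7 against 2.29 to 29.3 CPM.

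**Figure D3:**
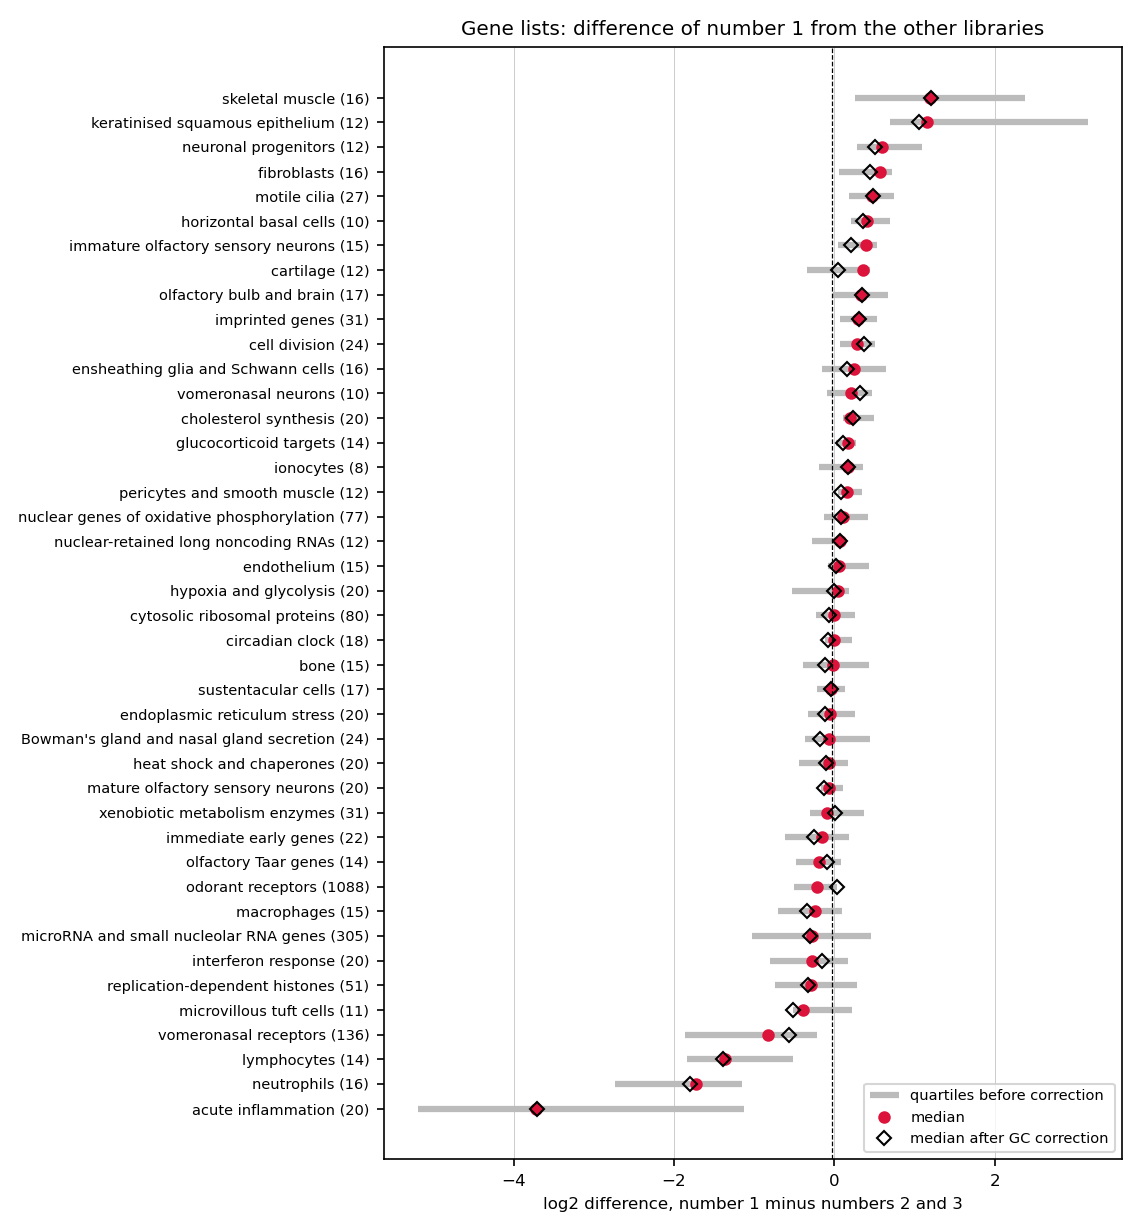
Median log2 difference, number 1 minus the other libraries, horizontal axis, of each gene list with at least 8 genes tested other than sex chromosome genes, vertical axis with the number of genes tested, as red points with grey bars for the quartiles and open diamonds after GC correction. The dashed line marks the median of all genes, −0.03, and of the lists drawn, skeletal muscle at 1.197 and acute inflammation at −3.72 form the ends.

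Several B lymphocyte genes were called lower in number 1. Of 14 lymphocyte genes, 5 were called lower and 0 higher, or 9 lower without WT_2 and 3 without het_1. The summed level was 17.6 ± 1.65 CPM (SD, n = 3) against 43.6 ± 12.8 CPM (SD, n = 6). Cd79b, of the B cell receptor, stood at 2.01, 2.41 and 1.68 CPM against 4.24, 7.55 and 9.73 CPM. Rag1, the recombinase of developing lymphocytes, was picked after its values were seen and stood at 1.62, 3.03 and 1.27 CPM against 4.92, 11.96 and 12.7 CPM. For both genes the sets did not overlap. The log2 differences were −1.85 (SE 0.27) and −2.50 (SE 0.33), and −1.66 and −2.28 without WT_3. The T cell genes Cd4 and Cd3e, picked after their values were seen, were not called, at −0.17 (SE 0.34) and −0.01 (SE 0.64). They do not stand for the list, whose median was −1.37, with 1 of 14 differences positive. In it 8 genes lay below all other libraries, beside 16.2% of all genes. Its other T cell genes are not reported here by name. Prg2, the major basic protein of eosinophils, stood at 0.245, 0.331 and 0.227 CPM against 4.51, 11.5 and 20.2 CPM, a log2 difference of −5.43 (SE 0.69), and −5.07 without WT_3. Globin and other erythroid genes showed 0 of 6 called in either direction, and the adipocyte genes Fabp4 and Adipoq, 2 of 4 tested, were lower at −1.14 and −0.98.

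Neutrophil genes were lower in number 1, but by amounts that depended on WT_3. Of 16 genes, 5 were called lower and 0 higher, or 11 lower without WT_3, 9 without WT_2 and 3 without WT_1 or homo_1. S100a8, a calcium-binding protein of neutrophils, stood at 6.08, 7.24 and 3.40 CPM against 15.8, 24.3 and 135 CPM, the last in WT_3. Its log2 difference was −2.74 (SE 0.65), and −2.04 without WT_3, when the highest of the others was 38.1 CPM. Mmp8, the neutrophil collagenase, gave −2.86 (SE 0.49) and −2.42 without WT_3. Ltf, lactoferrin, which nasal glands also secrete, ran counter to these at 964, 821 and 651 CPM against 155, 436 and 2721 CPM, and was not called. The list's summed CPM was 723 to 1064 in number 1, most of it from Ltf, against 347 to 5501, and overlapped between the sets. For macrophages, 4 of 15 genes were called lower and 0 higher, which were Lyz2, lysozyme, at −1.40 (SE 0.34), Ctss, a lysosomal protease, at −1.13, and the scavenger receptors Cd163 at −0.94 and Mrc1 at −0.63. The median of that list was −0.25, and −0.03 without WT_3, and 5 of its 15 differences were positive. Csf1r, also in the list, was not called at 0.16 (SE 0.16), or 0.30 without WT_3. It stood at 58.2, 62.0 and 65.5 CPM in WT_1, het_1 and homo_1. The others held 48.5 to 83.8 CPM, the highest in WT_3 and 54.2 CPM without it. After GC correction 1 macrophage gene was called higher and 3 lower. Without WT_1 0 macrophage genes were called lower, without homo_1 1 and without het_1 2.

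The acute inflammation list had a median of −3.72, yet 1 of 20 genes, Il6, was called lower and 0 higher, and 4 lay below all other libraries. Il1b, the cytokine interleukin 1 beta, stood at 1.23, 1.14 and 1.41 CPM in number 1. In the others Il1b was at 306 CPM in WT_3, 33.6 in het_3 and 1.15 to 11.2 CPM in the remaining 4, so it overlapped with number 1. Il6 held 1, 0 and 1 counts in WT_1, het_1 and homo_1, and 0.189 to 13.3 CPM in the others apart from WT_3, at 51.6 CPM. Without WT_3 the median of the list was −1.998, and 10 of 19 genes were called lower, as were 12 of 20 without WT_2, 4 without het_2 and 0 without any one of the number 1 libraries or homo_2. The summed level was 126 to 134 CPM in number 1 and 128 to 402 CPM in the others without WT_3. Low, even values of the list in number 1 were thus set against values that varied in the others. Interferon response genes had 0 of 20 called, and their median changed from −0.28 to 0.03 without WT_3.

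**Figure D4:**
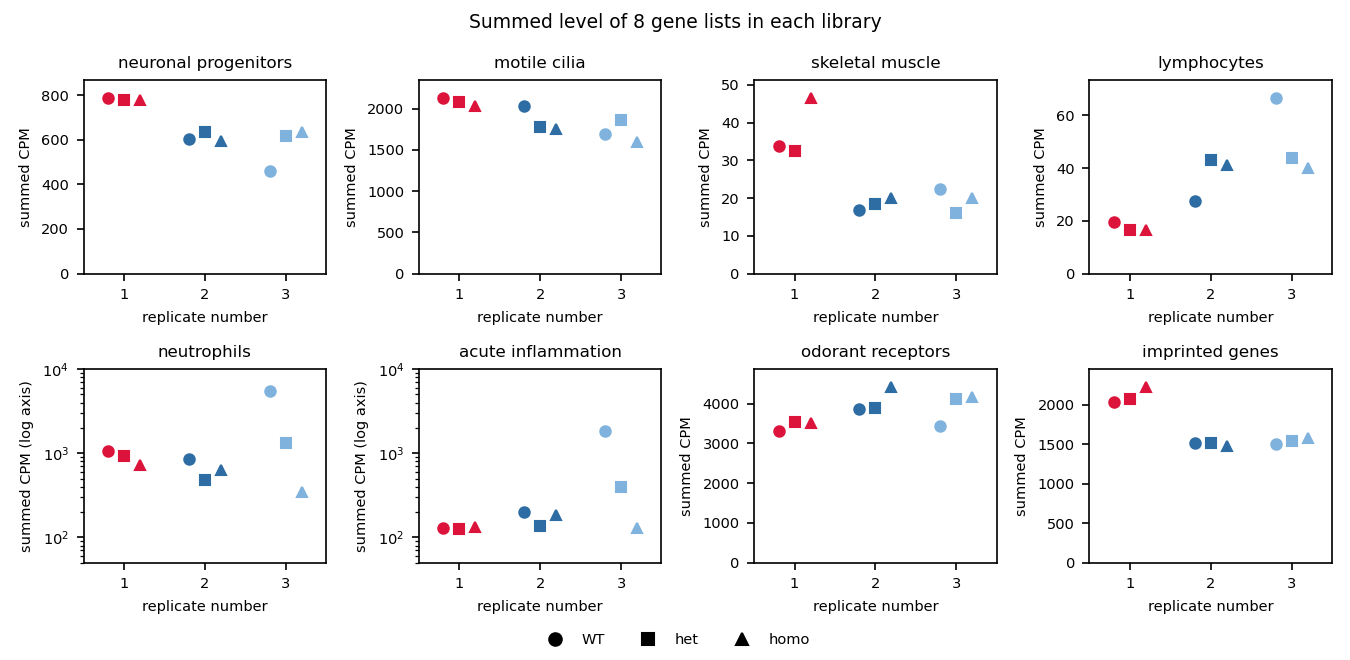
Summed CPM, vertical axis, of 8 gene lists in each library by replicate number, horizontal axis, with marker shape for genotype; neutrophil and acute inflammation panels have log axes and the others start at 0. Progenitor, muscle and imprinted gene sums were higher and lymphocyte sums lower in all 3 number 1 libraries, while the inflammation sums stood out in WT_3.

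Secreted proteins of nasal glands differed by gene. Of 24 genes of Bowman's and nasal glands, Dmbt1 and Sox9 were called higher and Obp1a and Lcn4 lower. Without WT_3, 5 were called higher and 4 lower, and without het_1 or homo_1 1 each way. Mup5, a major urinary protein outside that list, stood at 101, 38.6 and 13.8 CPM in WT_1, het_1 and homo_1 against 139, 368 and 810 CPM. Obp1a, an odorant-binding protein, stood at 884, 445 and 260 CPM against 808, 1914 and 2892 CPM, with WT_1 inside the range of the others. Lcn4, another lipocalin of the nose, gave −1.90 (SE 0.36) without overlap. The log2 difference was −3.29 (SE 0.54) for Mup5 and −1.89 (SE 0.37) for Obp1a, and counts of both are uncertain because near-identical copies share reads. Scgb3a1, a secretoglobin of airway glands and also outside the list, was lower at −2.19 (SE 0.46). Dmbt1, a mucosal scavenger receptor, was higher at 1.52 (SE 0.46), at 412, 560 and 500 CPM against 60.2, 208 and 384 CPM. Obp2a overlapped and was not called, at 0.70 (SE 0.32).

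Genes of growth control that are expressed from a single parental allele were higher in part. This list of imprinted genes was added after several of its values had been seen. Of 31 genes, 6 were called higher and 0 lower, 14 lay above all other libraries and 1 below, and the median was 0.29 (0.31 after GC correction). H19, a growth-restricting noncoding RNA on chromosome 7 from 142575529 to 142578143, stood at 322, 333 and 404 CPM against 107, 121 and 127 CPM. Igf2, the fetal growth factor of the same domain, from 142650766 to 142666816, stood at 302, 310 and 331 CPM against 178, 187 and 195 CPM. Cdkn1c, a cell cycle inhibitor also on chromosome 7, stood at 32.5, 28.7 and 33.9 CPM against 13.4, 13.8 and 14.8 CPM. The values within each set lay close together for these 3 genes, and the sets did not overlap. The log2 differences were 1.57 (SE 0.07), 0.76 (SE 0.05) and 1.18 (SE 0.08), and 1.41, 0.60 and 0.89 after GC correction. Nnat, a neuronal membrane proteolipid, gave 0.97 (SE 0.16), and Dlk1, a Notch-related ligand at under 1.5 CPM, 2.73 (SE 0.66). Meg3 and Peg3 were not called, at 0.28 (SE 0.10) and −0.09 (SE 0.05). The summed level was 2031 to 2230 CPM in number 1 and 1475 to 1579 CPM in the others.

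Cholesterol synthesis was higher by small amounts, with 4 of 20 genes called higher, 0 lower, and 12 above all other libraries. The median was 0.19, and the summed level 1344 ± 26.5 CPM (SD, n = 3) against 1094 ± 33.9 CPM (SD, n = 6). Srebf2, the transcription factor of the pathway, stood at 181, 179 and 188 CPM against 101, 109 and 120 CPM, a difference of 0.72 (SE 0.07). Dhcr7, the enzyme of the last step, gave 0.70 (SE 0.08). After GC correction Dhcr7 was still called, at 0.64, and Srebf2 was not, at 0.49.

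Most genes that report on handling of tissue or RNA were not called. The same held over all genes, of which 5.42% were called higher and 3.52% lower. Whether handling differed between the sets was not tested. Of 18 circadian clock genes, 1 was called higher and 0 lower, with a median of −0.01. The called gene was Nr1d1, a repressor of the clock, at 0.72. Glucocorticoid targets had 0 of 14 called in either direction, and immediate early genes, which respond to stimulation within minutes, 2 of 22 called higher, Arc at 0.73 and Klf4 at 0.61, and Nr4a3 called lower at −1.94. Among 20 heat shock genes, Hspe1 at 0.66 (SE 0.11) and Bag3 at 0.90 (SE 0.17) were called higher and Dnaja1 at −0.64 (SE 0.07) lower. In this list 5 genes lay above all other libraries and 5 below, beside 17.8% and 16.2% of all genes. Those below included the abundant Hspa8, at −0.48 (SE 0.10), and Hsp90aa1, at −0.53 (SE 0.10). Neither was called, but Hsp90aa1 was without WT_3, at −0.59. Of 20 genes of hypoxia and glycolysis, Gapdh was called higher and Ankrd37, a hypoxia target, lower at −0.76. Gapdh, often used as a reference gene, stood at 132, 124 and 142 CPM against 63.7, 74.0 and 97.0 CPM. Actb gave 0.51 (SE 0.12), not called, although all number 1 libraries lay above the others. Malat1, a nuclear-retained noncoding RNA, gave −0.48 (SE 0.10), not called, although all number 1 libraries lay below the others. Of 12 nuclear noncoding RNAs, 0 were called.

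Some RNAs that polyA selection depletes were lower in number 1. Rn45s, the precursor of ribosomal RNA, stood at 365, 343 and 351 CPM in WT_1, het_1 and homo_1 against 997, 1253 and 1441 CPM, a log2 difference of −1.78 (SE 0.12). The 3 number 1 libraries differed from each other far less than from the rest. Of 305 microRNA and small nucleolar RNA genes, 9 were called higher and 23 lower, beside 5.42% and 3.52% of all genes. Without any one of the number 1 libraries, 10 to 11 of them were called lower. Over all genes, 479 were called lower without WT_1, 407 without het_1 and 314 without homo_1. The summed level of the list was 236 to 241 CPM against 259 to 290 CPM. Replication-dependent histones, whose messages lack a polyA tail, had 1 of 51 called higher and 2 lower. Ribosomal protein genes had 6 of 80 called higher and 7 lower, and nuclear genes of oxidative phosphorylation 7 of 77 higher and 1 lower. The part of this RNA, of depth and of base composition in the results above was not tested.

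The counts of odorant receptor (OR) genes changed with the GC correction. Before it, 12 of 1088 were called higher and 138 lower, beside 5.42% and 3.52% of all genes, and the median was −0.22. Leaving out WT_1, het_1 or homo_1 left 91, 69 or 51 called lower. After the correction, 44 were called higher and 28 lower, close to the shares of 3.63% and 2.64% over all genes, and the median was 0.04. The median GC content of OR transcripts was 39.0%. The summed OR level was 3322, 3538 and 3520 CPM in number 1 and 3424 to 4425 CPM in the others, or 3853 to 4425 CPM without WT_3. Olfr110 stood at 1.91, 2.84 and 4.04 CPM against 5.49, 6.34 and 6.86 CPM, and Olfr1154 at 1.37, 2.13 and 1.31 CPM against 3.09, 3.81 and 4.28 CPM. Both remained called lower after the correction, at −0.92 and −0.90. Olfr513 was higher, at 2.06, 1.80 and 2.31 CPM against 0.680, 0.808 and 1.12 CPM. Vomeronasal receptor genes had 1 of 136 called, lower, and a wide spread, with 113 CPM summed in het_3 against 13.97 to 29.0 CPM in the other libraries. Genes of vomeronasal neurons had 1 of 10 called higher, Gnai2, a G protein alpha subunit that immune cells also express.

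The differences of number 1 were also compared between genotypes. Since the split was chosen because number 1 lay apart in every genotype, this comparison draws on the values of that choice and is given as a description. The interaction of genotype with set was called for 0 of 19775 genes (0.0%) in edgeR, where 180 had an unadjusted p below 0.05. It was called for 0 genes by limma-voom and for 0 by DESeq2 as well. Without WT_2 the count was 89, when the WT contrast rested on WT_1 and WT_3 alone. With 1 library per genotype in number 1, an interaction had to be large to be called, so this does not show that the genotypes were alike.

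Numbers 2 and 3 were compared, 3 libraries against 3, in a fit of all 9 libraries. Genotype was in the model and number 1 was its own level. The split did not use the difference between numbers 2 and 3 itself. It did pool them because number 1 lay apart, so this comparison is not independent of that choice. In edgeR 0 genes (0.0%) were called, 849 had an unadjusted p under 0.05 and the smallest adjusted p was 0.921. Limma-voom called 0 and DESeq2 35, and without homo_3 edgeR called 245. For comparison of size, the progenitor list had a median of 0.14 for number 2 minus number 3, fibroblasts −0.09, skeletal muscle 0.25, lymphocytes −0.45 and imprinted genes −0.01. The neutrophil and acute inflammation lists stood at −1.13 and −2.001 in that contrast, in which WT_3 and het_3 are both number 3 libraries.

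The genotype contrasts, with the set in the model, were the remaining comparison. Taar genes encode olfactory trace amine-associated receptors, and 0 of 14 were called in either direction between the sets. Between homo and WT, 4 genes were called in edgeR (0.0202%), with 1320 at an unadjusted p under 0.05: Taar3, Taar6, Taar7a and Taar9, all lower in homo. Taar6 stood at 0.635 CPM in homo_1, 0.610 in homo_2 and 0.743 in homo_3, and at 6.57, 6.62 and 6.27 CPM in WT_1, WT_2 and WT_3. In each genotype the number 1 value of Taar6 lay between those of numbers 2 and 3. Its log2 difference was −3.28 (SE 0.17, edgeR adjusted p 0.000315). Taar9 gave −3.39 (SE 0.28, edgeR adjusted p 0.00663) and Taar7a −2.34 (SE 0.22, edgeR adjusted p 0.0154), although copies of Taar7 share sequence. Taar3 was at 1 to 2 counts in each homo library and 1.23 to 1.95 CPM in WT. Between homo and het, Taar6, Taar7a and Taar9 were called (0.0152%), with 262 genes at an unadjusted p under 0.05. Between het and WT, 0 genes (0.0%) were called in edgeR, with 590 at an unadjusted p under 0.05, and 0 by limma-voom and DESeq2. Among the numbers 2 and 3 alone, 0 genes were called between homo and WT or between homo and het.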

How the data were processed

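Per the labels, RNA of the whole MOE was extracted with a column kit and DNase and made into directional libraries after polyA bead selection. The submitters' processing notes name Trimmomatic 0.36, HISAT2 2.1.0, Subread (featureCounts) 1.6.2, DESeq2 1.20.0 and build mm10. The authors deposited raw counts per gene symbol, which were analysed here. They also deposited a normalized signal, each count divided by a size factor of the library, which was only compared with the counts. The annotation release, strand option and treatment of reads with several matches are not given in the sources used here.

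Columns were matched to libraries by name. Genes with at least 10 counts over the 9 libraries (19775 of 24421) were fitted with edgeR 4.0.16 in R 4.3.3 (TMM, quasi-likelihood, genotype and set as terms, 2-sided, Benjamini-Hochberg adjustment). The spread between replicates corresponded to a common dispersion of 0.0285 (16.9% coefficient of variation). SE values come from this fit, and fitted folds of genes with near-0 counts depend on its prior count. The interaction of genotype and set, number 2 against 3, and genotype with set were fitted likewise. The study gives its sample size as 3 mice per genotype, so the p-values rest on the spread between animals and their preparation. Limma 3.58.1 (voom), DESeq2 1.42.0, other scalings, filters, thinning, a replicate block and leaving out each library were alternatives. GC content came from GENCODE M21, the same build, for 98.9% of the genes, of which 23350 symbols matched by name and 669 through a RefSeq synonym. The correction fitted a natural spline with 4 degrees of freedom in each library. Scripts were tested on simulated data. Counting floors (3 counts) cover counting error only.

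The members, gene lists and rules were chosen with earlier results of these data known. Named genes were, per list, up to 4 with the highest mean and up to 3 with the greatest difference, the 8 greatest differences in each direction above 5 CPM, sex and reference genes, called genes and Taar genes. Another 34 were chosen after their values were seen, among them Cnga2, Adcy3, Gap43, Neurod1, Lgr5, Trp63, Mcidas, Dnah5, Sox10, Eln, Dcn, Lum, Alpl, Acta1, Nnat, Meg3, Rag1, Obp2a, Dmbt1, Scgb3a1, Rn45s, Cd4, Cd3e and Trpm5. Some genes of the lists are not reported here by name. The printed sequences belong to called, non-overlapping genes of the groups with the lowest and highest GC content, with the greatest difference, above 20 CPM (5 CPM for the OR gene).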

Additional observations from a re-analysis of the deposited data

Results flagged for a closer look

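Within numbers 2 and 3, the total counts and the summed CPM of 45 gene lists, 46 quantities in all, were searched for a library far from the other 5, by Dixon's ratio of the gap to the whole range. Chance puts about 1 in 20 such quantities past the 95% limit, or 2.3, and 16 passed it, 15 of them for WT_3. The lists share samples and genes, so these outliers are not independent. WT_3 was lowest for immature OSNs, at 3235 CPM, neuronal progenitors, at 459.6 CPM, and cell division, at 784.6 CPM. It was highest for the other 12. These were microvillous tuft cells at 65.68 CPM, glia at 1329 CPM, endothelium at 390.7 CPM, pericytes and smooth muscle at 2244 CPM and keratinised squamous epithelium at 35.42 CPM. Neutrophils stood at 5501 CPM, macrophages at 745.1 CPM, acute inflammation at 1823 CPM and interferon response genes at 1746 CPM. Immediate early genes stood at 1064 CPM, glucocorticoid targets at 2630 CPM and hypoxia and glycolysis at 3072 CPM. In het_3, vomeronasal receptors stood at 113.4 CPM. Why these libraries differ was not tested.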

How the results depend on the processing

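Over up to 22 alternatives, 2751 of 2895 values of named genes kept their side of the threshold, 108 lost the call and 36 gained it. No called gene changed sign, whereas 17 of 132 named genes, none of them called, took the other sign under at least 1 alternative. Of 46 list medians, 26 kept their sign throughout. The GC correction, chosen after seeing the data, left 710 genes called higher in number 1 in place of 1072. Leaving out single libraries gave 314 to 938 genes called lower in place of 697, with 407 without het_1 and 314 without homo_1, and it gave 854 to 1281 called higher. Without WT_3 there were 1281 called higher and 938 lower, of which 1030 and 629 were shared with the full set. With limma-voom there were 480 called lower. For the interaction of genotype and set, leaving out libraries gave 0 to 89 calls, the most without WT_2. For number 2 against 3 it gave 0 to 245, with 1 call when numbers 2 and 3 were fitted alone and 35 in DESeq2. For homo against WT it gave 1 to 28, the most without WT_3, with 0 for numbers 2 and 3 alone, 1 in limma-voom and 24 in DESeq2. For het against WT it gave 0 to 4, the most without WT_3. For homo against het it gave 1 to 4, with 1 when the set was left out of the model, 0 for numbers 2 and 3 alone, 1 in limma-voom and 8 in DESeq2. Beyond the smaller number of libraries in some fits, the cause was not tested. Deviations of same-numbered libraries from their genotype means, for numbers 1, 2 and 3, correlated at 0.682, 0.457 and 0.586 for WT with het. For het with homo the values were 0.807, 0.36 and 0.195, and for WT with homo 0.532, 0.32 and −0.0854. The number was therefore not taken as a pairing of all samples. With number as a replicate block, 1092 genes were called higher and 719 lower, 3 between homo and WT, 3 between homo and het and 0 between het and WT. Leaving out a number 1 library removed the interaction term of its genotype, so no such fit was made. Depth limits genes under about 0.147 CPM in number 1.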
